A study of Drosophila melanogaster with 3 samples.

Results

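Oxidative phosphorylation genes of the nuclear genome were examined for Zen binding in the early *Drosophila melanogaster* embryo. They were taken by symbol from the Ensembl annotation, as protein-coding genes on the 6 nuclear arms whose symbol starts with ND- (complex I), Sdh (complex II), UQCR- (complex III), COX and a digit (complex IV) or ATPsyn (complex V). This gave 88 genes of 13945 protein-coding genes. Of these, 24 have a symbol that ends in L, or in L and a digit, and are named here L copies. *ND-MNLL* is not counted among them, since its last letters belong to the name of the subunit. The suffix usually marks a duplicate of another subunit gene, but the copies were taken by symbol alone and a few may not be duplicates in the strict sense. The remaining 64 are mostly subunits of the 5 complexes. They also include *Sdhaf3*, which encodes an assembly factor of complex II.

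The binding data came from chromatin immunoprecipitation and sequencing with an antibody against GFP. All 3 libraries were biological replicates of 1 group, a stable transgenic line in which Zen carries GFP at its C terminus, and the chromatin came from whole embryos of both sexes aged 0 to 4 h. Each library had a list of 30000 peak summits, and the set kept by the irreproducible discovery rate (IDR set) came from the pooled libraries. For comparison with it, each library list was also shortened to its strongest summits, as many as the IDR set holds, which is called its top list here. Per the deposited notes, peaks were called against control alignments. No second condition and no immunoprecipitate of flies lacking the fusion were analysed here, so binding by Zen and recovery of accessible promoters regardless of Zen cannot be told apart. Values are therefore counts and ranks set beside those of all protein-coding genes, with no test. Rank 1 is the summit with the highest signal value in its list, and the depth of the libraries is unknown. For scale, *zen* itself held 3 IDR summits in its territory (the gene body and 2 kb on either side), the strongest at rank 303. The dorsal gene *ush* held 14, the strongest at rank 16. At least 1 IDR summit lay in the territory of 46.8% of all protein-coding genes. Both genes were named with earlier results of these data known, so they are no independent check of the lists.

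Oxidative phosphorylation passes electrons from NADH and succinate through complexes I to IV to oxygen and uses the resulting proton gradient to make ATP in complex V. The core subunits that mitochondrial DNA encodes are outside this list, and every other subunit comes from scattered nuclear genes that most cells express. Many of the L copies are known in *Drosophila* as duplicates expressed mainly in the testis. Zen is a homeodomain protein of the dorsal side of the embryo, known for specifying the amnioserosa.

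Sequence under 9 of the summits is printed below, since position and letters at the start sites carry most of what follows. The set holds, for each complex, the gene without the L suffix that had the strongest start summit on an arm whose sequence is used here, together with *ND-42* and *ND-24* (a shared start region), *COX4* (several motifs) and the L copy *UQCR-6.4L*. Each stretch reaches up to 60 bases on either side of the summit, leaves out annotated exons and reads 5′ to 3′ on the strand of the gene. Capitals mark every match, on either strand, to the motifs counted further on.
ND-51, dm6 chr2L:6062796-6062916, minus strand: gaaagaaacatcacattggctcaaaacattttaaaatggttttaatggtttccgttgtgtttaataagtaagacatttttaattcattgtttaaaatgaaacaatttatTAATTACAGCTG
ND-42, dm6 chr3R:22027492-22027612, plus strand: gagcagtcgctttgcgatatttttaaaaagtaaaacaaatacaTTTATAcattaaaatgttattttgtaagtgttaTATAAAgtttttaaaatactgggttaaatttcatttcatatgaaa
ND-24, dm6 chrX:17632180-17632253, plus strand: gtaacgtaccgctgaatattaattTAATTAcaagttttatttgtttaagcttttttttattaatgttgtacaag
SdhC, dm6 chr3R:11210126-11210246, minus strand: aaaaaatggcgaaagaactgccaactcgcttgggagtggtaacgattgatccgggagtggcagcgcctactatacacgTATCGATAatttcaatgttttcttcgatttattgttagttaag
UQCR-11, dm6 chr3L:25120596-25120708, plus strand: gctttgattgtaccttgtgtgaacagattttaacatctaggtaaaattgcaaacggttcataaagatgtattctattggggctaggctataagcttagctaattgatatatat
COX7B, dm6 chr3L:17425278-17425398, plus strand: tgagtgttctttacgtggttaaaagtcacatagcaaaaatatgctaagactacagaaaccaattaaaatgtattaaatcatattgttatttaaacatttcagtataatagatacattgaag
COX4, dm6 chr2L:19958628-19958712, plus strand: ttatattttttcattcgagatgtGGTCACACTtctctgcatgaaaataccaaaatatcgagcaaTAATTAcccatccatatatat
ATPsynCF6, dm6 chr3R:23356098-23356218, minus strand: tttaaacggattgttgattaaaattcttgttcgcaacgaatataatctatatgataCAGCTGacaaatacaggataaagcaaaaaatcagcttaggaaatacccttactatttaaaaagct
UQCR-6.4L, dm6 chr3L:16566268-16566388, plus strand: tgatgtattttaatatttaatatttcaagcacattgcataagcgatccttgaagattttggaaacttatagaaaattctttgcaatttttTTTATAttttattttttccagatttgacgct

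The printed stretches differed from one another. *ND-51* held TAATTA next to CAGCTG, *ND-24* held TAATTA, and *COX4* held GGTCACACT upstream of TAATTA. *SdhC* held TATCGATA and *ATPsynCF6* held CAGCTG. The *SdhC* stretch lies around a summit 337 bp from the start of *SdhC* and 61 bp from that of *Tctp* on the other strand. *ND-42* and *UQCR-6.4L* held TATAAA in one orientation or the other. The stretches of *UQCR-11* and *COX7B* held none of the 11 motifs.

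Summits at the start were sought first. An IDR summit lay within 500 bp of an annotated start in 40 of the 88 genes (45.5%), where 29.3% of all protein-coding genes had one. The genes split by copy. Of the 64 genes without the L suffix, 39 (60.9%) had a start summit, and of the 24 L copies only *UQCR-6.4L* (4.17%) did. The top lists of replicates 1, 2 and 3 marked 40, 37 and 40 of the 88 genes at a start, a mean of 39.0 ± 1.73 (SD, n = 3), beside 28.3%, 27.7% and 29.6% of all protein-coding genes. Among the genes without the suffix the libraries marked 39, 35 and 39, and among the L copies 1, 2 and 1. All 3 libraries marked 32 of the 88 genes (36.4%), against 21.0% of all protein-coding genes.

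**Figure D1:**
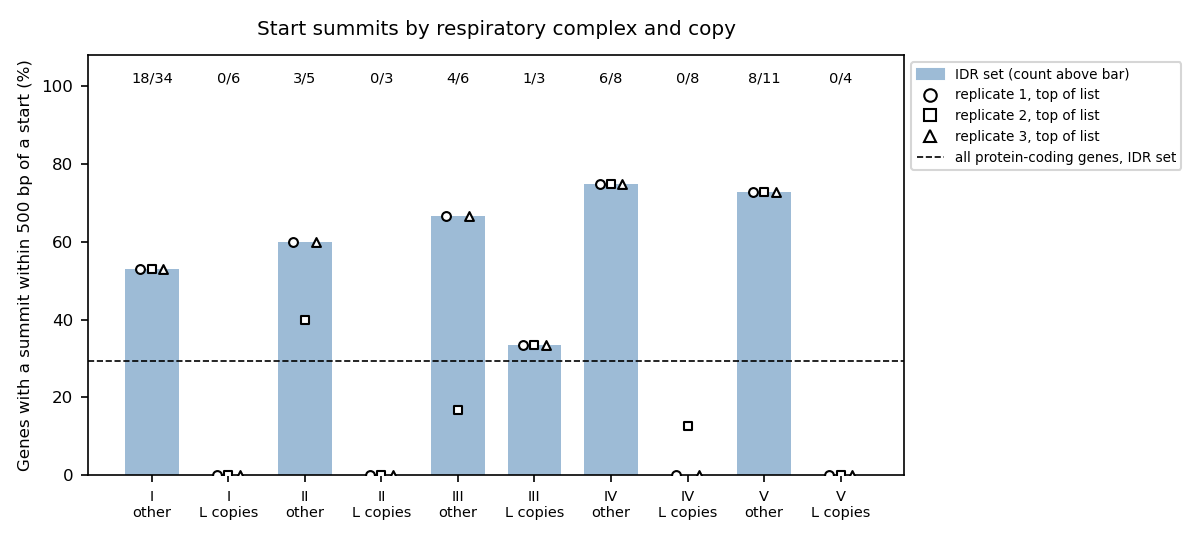
Share of genes (%) with a summit within 500 bp of a start, by respiratory complex (I to V) and by copy. Bars show the IDR set with counts above them, symbols show the top list of each replicate, and the dashed line is the 29.3% of all protein-coding genes. Bars of genes without the L suffix stand above the line in every complex, and bars of L copies are at 0 except in complex III.

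Each complex was represented. Complex I, the NADH dehydrogenase, had a start summit at 18 of 34 genes without the suffix (52.9%), complex II, the succinate dehydrogenase, at 3 of 5, complex III, the cytochrome bc1 complex, at 4 of 6, complex IV, the cytochrome c oxidase, at 6 of 8 and complex V, the ATP synthase, at 8 of 11. These groups are small, and no difference between them was tested. In complexes I, IV and V each library marked as many genes at the start as the IDR set did, but not always the same genes. All 3 libraries marked 15, 5 and 8 genes of these complexes. In complex III replicates 1 and 3 marked 4 genes and replicate 2 marked 1.

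**Figure D2:**
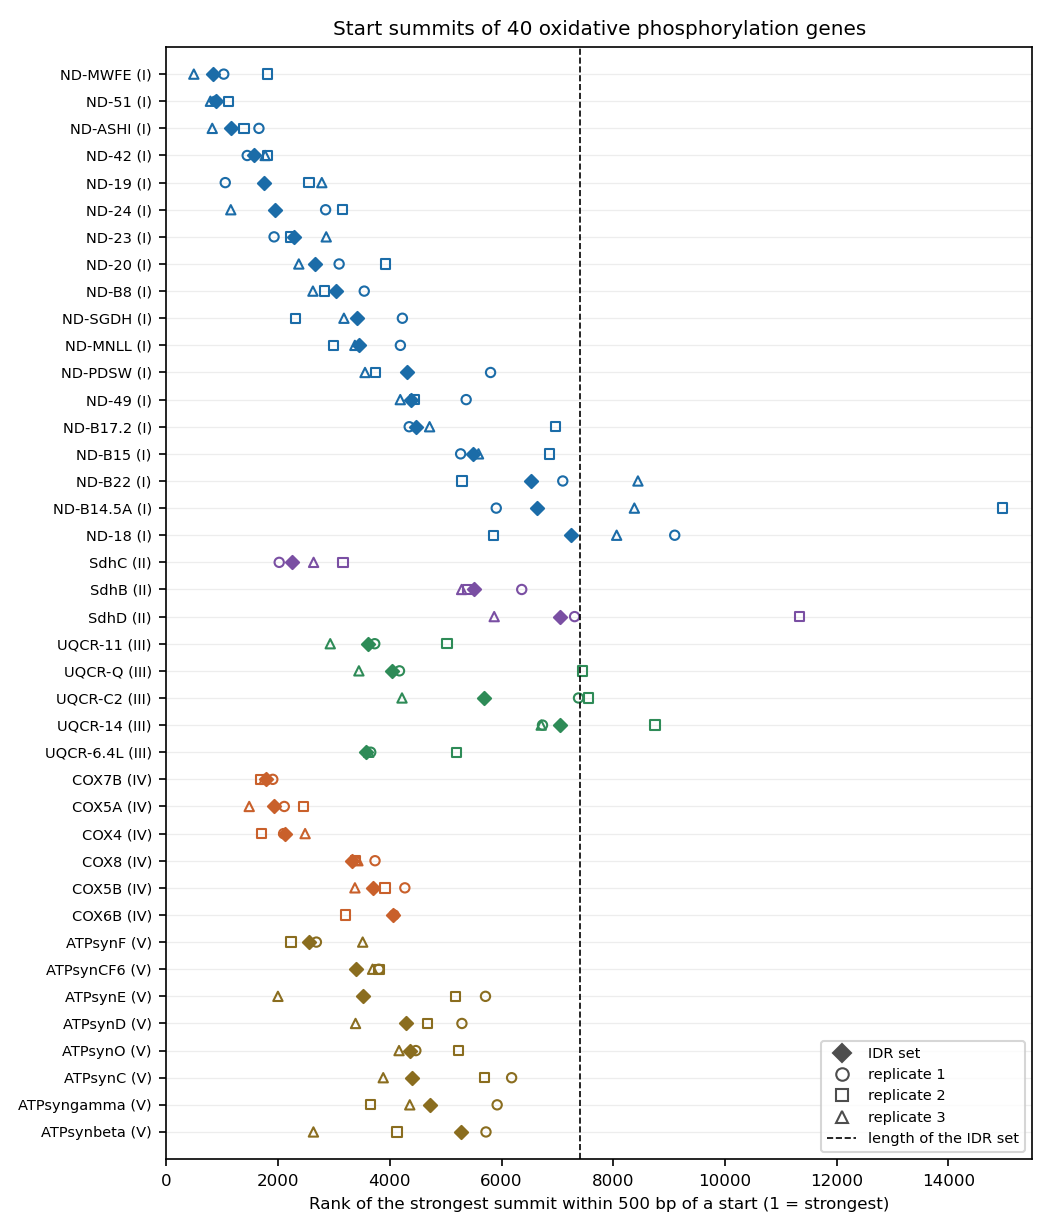
Rank of the strongest summit within 500 bp of a start for the 40 genes with an IDR start summit, with the complex in parentheses. Filled diamonds are ranks in the IDR set, open symbols are ranks in the full list of each replicate, and the dashed line marks the length of the IDR set. The IDR ranks run from 826 (*ND-MWFE*) to 7243 (*ND-18*), and open symbols beyond the line are summits outside the top list of their library.

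Ranks of the summits spread over the list. The median IDR rank of the strongest start summit was 3592 over the 40 genes and 3514 over the 4089 protein-coding genes with a start summit. Few stood near the top of the list: 2 of the 40 (5%) were within the first 1000 ranks, where 13.9% of all genes with a start summit were, and 31 (77.5%) within the first 5000, where 71.2% of all were. In replicates 1, 2 and 3 the 40 genes had median ranks of 4181, 3858.5 and 3386, beside 3586.5, 3736.5 and 3314 for all such genes. A library rank is that of its strongest summit within 500 bp of a start, which need not be the IDR summit. Within 100 bp of the IDR summit, the top lists of replicates 1, 2 and 3 held a summit at 37, 33 and 34 of the 40 genes. Replicate 3 gave the best of the 3 ranks for 23 of the 40 genes, replicate 2 for 10 and replicate 1 for 7. These last counts were not made over all genes with a start summit, whose median rank was also lowest in replicate 3 (3314).

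In complex I the strongest summit belonged to *ND-MWFE*, which encodes a small accessory subunit (2R, 13158666 to 13160190, plus strand). It ranked 826 in the IDR set and 1026, 1812 and 490 in replicates 1, 2 and 3, and lay 174 bp upstream of the start. *ND-51* (2L, 6060842 to 6062757, minus strand), the gene of the flavoprotein subunit that binds NADH, ranked 884, with 872, 1113 and 787 in the replicates. Its ranks differed less between libraries than those of *ND-MWFE*. *ND-ASHI*, for an accessory subunit of the membrane arm, ranked 1149 (replicates 1656, 1391 and 820). *ND-42* ranked 1567 (1446, 1804 and 1768), *ND-19* 1744 (1053, 2552 and 2782) and *ND-24*, for the other flavoprotein subunit, 1951 (2850, 3154 and 1152). For *ND-19* and *ND-24* the libraries went opposite ways, since replicate 3 gave the weakest rank at the first and the strongest at the second. *ND-23* and *ND-20*, which encode iron-sulfur subunits, ranked 2277 and 2656. Between ranks 3030 and 5482 stood *ND-B8*, *ND-SGDH*, *ND-MNLL*, *ND-PDSW*, *ND-49*, for a core subunit, *ND-B17.2* and *ND-B15*, all in the top list of each library. *ND-B22* (6530) ranked 7097, 5293 and 8443 in the replicates and *ND-B14.5A* (6640) 5906, 14969 and 8379, so replicate 3 lacked both in its top list and replicate 2 lacked the second. The weakest was *ND-18* at rank 7243, with 9102, 5853 and 8062 in the replicates, so that only replicate 2 held it in its top list.

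Of the 16 genes of complex I with no IDR start summit and no L suffix, *ND-75* and *ND-30* encode core subunits. *ND-75* (X, 8248651 to 8251687, minus strand), for the largest core subunit, had no start summit in any list of 30000. It was the only one of the 64 genes without the suffix of which this was true. *ND-30* ranked 9641, 9730 and 8143 in the replicates, outside each top list but within a narrow band. *ND-AGGG* ranked 9150, 5221 and 8448, and *ND-15* 5967, 24606 and 5582, so these were in the top lists of 1 and 2 libraries. *ND-39* ranked 9690, 7969 and 10377. *ND-B18* and *ND-MLRQ* were in the top list of replicate 3 alone, at ranks 6322 and 5581. The others, *ND-13A*, *ND-13B*, *ND-ACP*, *ND-B12*, *ND-B14*, *ND-B14.5B*, *ND-B14.7*, *ND-B16.6* and *ND-B17*, were in no top list. *ND-B16.6* shares its start region with *kdn*, for citrate synthase, which had no IDR start summit either.

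Complex II feeds electrons from succinate to ubiquinone and also takes part in the tricarboxylic acid cycle. *SdhC* and *SdhD*, for the membrane anchors, had start summits at ranks 2252 and 7053. The *SdhC* summit was nearer to the start of *Tctp* (61 bp) than to its own (337 bp), so it cannot be given to *SdhC* alone. *SdhC* ranked 2019, 3161 and 2635 in replicates 1, 2 and 3, and *SdhD* 7309, 11342 and 5869, which put *SdhD* outside the top list of replicate 2. *SdhB*, for the iron-sulfur subunit, ranked 5507, with the summit 1 bp downstream of its start. *SdhA*, for the flavoprotein subunit that oxidises succinate, had no IDR start summit and ranked 18229, 17485 and 22790 in the replicates. *Sdhaf3* ranked 29510, 26757 and 17273, near the end of the first 2 lists.

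In complex III the start summits stood at *UQCR-11* (rank 3613), *UQCR-Q* (4039), *UQCR-C2*, for a core protein of the complex (5680), and *UQCR-14* (7044). In replicate 2 they ranked 5024, 7453, 7554 and 8746, so 3 of these 4 genes were outside its top list. *UQCR-C1*, for the other core protein, had no IDR start summit, and its replicates ranked 22427, 10086 and 8195.

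In complex IV *COX7B* led with rank 1780, and its replicates gave 1904, 1690 and 1751, which lie close together. *COX5A* followed at 1919 (replicates 2110, 2450 and 1482) and *COX4* at 2115 (2098, 1703 and 2483). *COX8* and *COX5B* ranked 3322 and 3705. *COX6B* ranked 4057 in the IDR set and 4076 and 3207 in replicates 1 and 2, while the list of replicate 3 had no summit within 500 bp of its start. *COX7A* and *COX7C* had no IDR start summit, and *COX7C* was in the top list of replicate 3 alone, at rank 7220.

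In complex V all 8 genes with an IDR start summit had a start summit in the top list of each library. Not all of these lay within 100 bp of the IDR summit. The exceptions were *ATPsynbeta* in replicate 1, *ATPsynC* in replicate 2, and *ATPsynCF6* and *ATPsyngamma* in replicate 3. *ATPsynF*, for a subunit of the membrane part, ranked 2547 and *ATPsynCF6*, for coupling factor 6 of the peripheral stalk, 3401. *ATPsynE* (3517) ranked 5713, 5178 and 1996 in replicates 1, 2 and 3, the highest being replicate 3. *ATPsynD* (4297), *ATPsynO* (4366), for the peripheral stalk protein known as OSCP, *ATPsynC* (4392), for the ring subunit, and *ATPsyngamma* (4727), for the central stalk, lay close together. The weakest was *ATPsynbeta* (4, 1031484 to 1034917, plus strand), for the catalytic subunit, at rank 5282 with 5722, 4126 and 2632 in the replicates. It was the only one of the 40 genes with more than 1 start summit, and it had 2. *ATPsynB*, *ATPsyndelta* and *ATPsynG* had none in the IDR set or in a top list. Of the 25 genes of all complexes without the suffix and without an IDR start summit, 18 had a start summit in all 3 lists of 30000, and 5 of these 18 (*ND-15*, *ND-AGGG*, *ND-B18*, *ND-MLRQ* and *COX7C*) were in the top list of at least 1 library.

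The start summits lay mostly just upstream. In 35 of the 40 genes (87.5%) the strongest start summit was upstream of the nearest start of the gene, as in 86.7% of all genes with a start summit. The median position relative to the start was -89.5 bp for the 40 genes and -112 bp for all. Within 150 bp of the start lay 30 of the 40 (75%), beside 60.6% of all. The farthest was *ATPsynbeta*, 492 bp upstream and 17 bp from the start of *CG11076* on the other strand.

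**Figure D3:**
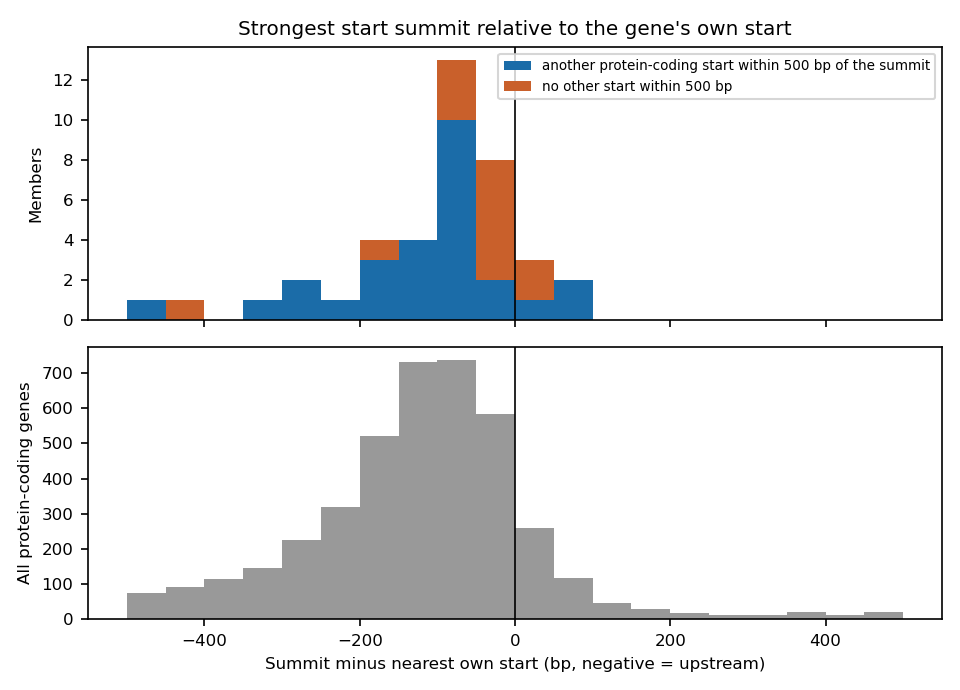
Histograms of the distance (bp) from the strongest IDR start summit to the nearest start of the gene, for the 40 genes (top, number of members) and for 4089 protein-coding genes (bottom, number of genes). In the top histogram, blue marks summits that also lie within 500 bp of a start of another protein-coding gene, which 27 of the 40 do. The bottom histogram is not split this way. The bulk of both distributions lies upstream of the start, with medians of -89.5 and -112 bp.

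Shared start regions were common among these genes. A head-to-head neighbour was defined as another protein-coding gene on the opposite strand that starts within 500 bp upstream. Of the 64 genes without the L suffix 36 (56.2%) have such a neighbour, and of the 24 L copies 3 do. Over all protein-coding genes the share is 27.4%. With a neighbour, 27 of the 36 genes without the suffix (75%) had an IDR start summit, where 55.8% of all protein-coding genes with a neighbour had one. With no neighbour the count was 12 of 28 (42.9%), beside 19.4% of all such genes. Each library marked 27 of the 36 genes with a neighbour, and replicates 1, 2 and 3 marked 12, 8 and 12 of the 28 without. The genes marked in all 3 libraries were 25 of the 36 and 6 of the 28. No L copy with a neighbour had a start summit. The groups are also smaller when split this way, and the differences were not tested.

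**Figure D4:**
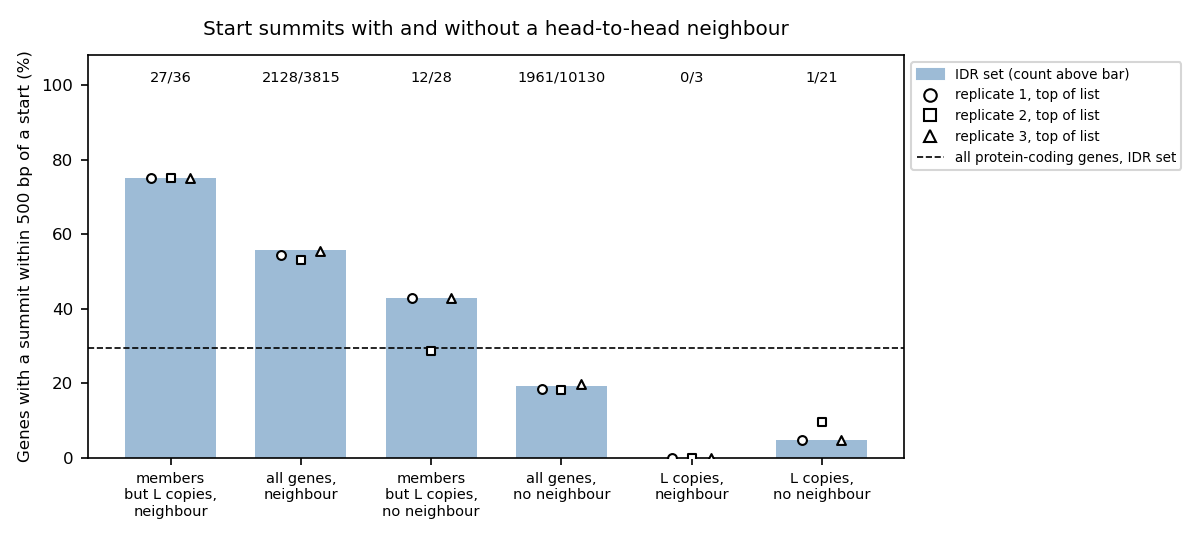
Share of genes (%) with a summit within 500 bp of a start, with and without a head-to-head neighbour, for genes without the L suffix, for L copies and for all protein-coding genes. Bars show the IDR set with counts above them, symbols show the top list of each replicate, and the dashed line is the 29.3% of all protein-coding genes. The tallest bar is 75% for genes without the suffix that have a neighbour, and the bars of L copies are at 0 and 4.76%.

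Where a summit also lies near a start of another gene, it cannot be given to a single gene. Of the 40 strongest start summits, 27 also lay within 500 bp of a start of another protein-coding gene, and 15 of these 27 were nearer to that other start. The same count was not made over all genes. By the related measure, 67.5% of the 40 genes had a head-to-head neighbour, beside 52.0% of all protein-coding genes with a start summit. The 2 measures do not mark quite the same genes. *ND-49* has a head-to-head neighbour, but its summit was 803 bp from the nearest other start. *UQCR-Q* has none, but its summit was 255 bp from a start of *CG46525*. The *ND-MWFE* summit was 174 bp from its own start and 47 bp from that of *TppII*, a peptidase gene. The *ND-42* summit lay 157 bp from its own start and 72 bp from that of *Cchl*, whose product attaches heme to cytochrome c. The *ND-ASHI* summit lay about as far from both, 259 bp from its own start and 263 bp from that of *Fum1*, for the fumarase of the tricarboxylic acid cycle. *ATPsynD* shares its start region with *mRpL55*, for a mitochondrial ribosomal protein, at 46 and 49 bp from the summit. Other partners have no mitochondrial role in their usual description. *ND-PDSW* pairs with the dosage compensation gene *msl-2* (59 and 14 bp), *ND-23* with the piRNA pathway gene *spn-E* (120 and 182 bp) and *ATPsynCF6* with *Sec13*, a vesicle coat gene (94 and 120 bp). In the other 13 genes no other protein-coding start lay within 500 bp. Among them were *COX4*, *ND-20*, *SdhB*, *SdhD*, *UQCR-11*, *UQCR-C2*, *UQCR-14*, *ATPsynO* and *ATPsynC*.

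L copies and the genes they duplicate were set side by side. For 20 of the 24 L copies the gene with the same symbol less the suffix is also in the list, 18 distinct genes in all. In 14 of these 20 pairs that gene had an IDR start summit and the copy did not. In 5 pairs neither had one, and in 1 pair only the copy did. In some of the 14 pairs the summit also lay within 500 bp of a start of another protein-coding gene, as at *ND-24*, *ND-51* and *SdhC*. *COX5BL* starts just beyond *COX5B*, with 122 bp between the genes on the same strand. The summit upstream of *COX5B* (rank 3705) lay 225 bp from its start and 73 bp from that of *IFT52* on the other strand. It had no counterpart at the start of *COX5BL*, which had no start summit in any library list. *SdhBL*, *SdhCL*, *UQCR-14L*, *ND-24L* and *ND-49L* had none either. In all, 19 of the 24 L copies had no start summit in any list of 30000, against 1 of the 64 other genes. Among all 13945 protein-coding genes this was true of 5267. The full lists of replicates 1, 2 and 3 had a start summit at 53.0%, 52.6% and 54.6% of all protein-coding genes, at 59, 60 and 62 of the 64 genes without the suffix and at 4, 3 and 3 of the 24 L copies.

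The exceptions among the L copies were few. *UQCR-6.4L* (3L, 16566750 to 16567300, plus strand) had an IDR start summit at rank 3571, with 3658, 5197 and 3622 in replicates 1, 2 and 3. It lay 422 bp upstream, and the nearest other protein-coding start was 6073 bp from it. A further summit at rank 3150 lay 1005 bp from its start. Its partner *UQCR-6.4* had no IDR start summit and ranked 10385, 15746 and 7839. *COX4L* was in the top list of replicate 2 alone, at rank 4674, with 10817 in replicate 3 and no start summit in replicate 1.

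The wider territory, the gene body and 2 kb on either side, added 12 genes to those with a start summit. An IDR summit lay in the territory of 52 of the 88 genes (59.1%), beside 46.8% of all protein-coding genes. The counts in replicates 1, 2 and 3 were 49, 54 and 53, beside 45.4%, 44.8% and 48.3% of all. Of the 64 genes without the suffix 46 had one, and of the 24 L copies 6. The genes are short, with a median length of 1097 bp against 2166 bp for all protein-coding genes. Of the 38 territory summits that were not within 500 bp of a start of the gene, 27 lay within 500 bp of a start of another protein-coding gene. This was not counted over all genes. The strongest of the 38, at rank 185, was in the territory of *SdhD* but 2417 bp from its start. It lay 156 bp from the start of *PTPMT1*, which encodes a mitochondrial phosphatase. The next lay in the territories of L copies, away from other protein-coding starts. *COX7AL2* held 4 summits, the strongest at rank 416 and 599 bp from its start. The summit of *SdhAL*, at rank 769, lay 826 bp from its start and 2110 bp from a start of *byn*, a T-box gene of the hindgut.

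For motifs, both strands were searched up to 100 bp away from the 41 distinct start summits of these genes and from 3243 IDR summits within 500 bp of any protein-coding start. Shares carry exact Clopper-Pearson 95% intervals that cover counting error only, and matches to different motifs may overlap. The E-box CAGCTG lay at 12 of the 41 summits (29.3%, interval 16.1 to 45.5%) and at 12.8% of all start summits. Over all promoters (250 bases before to 50 after the most upstream start) it was found in 17.7%. The summits with it included those of *ND-51*, *ND-42*, *ND-19*, *ND-24*, *ATPsynCF6*, *ATPsynD* and *ATPsynO*. This motif was the one among 11 whose interval did not reach the share of all start summits, and it was singled out after its value was seen. Within 50 bp of the summits its share was 17.1%.

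The other motifs had intervals that took in the shares of all start summits. TATCGATA, the DNA replication-related element (DRE) of many housekeeping promoters in flies, lay at 6 of the 41 summits (14.6%, against 11.4%). They included those of *ND-MNLL*, *ND-B15*, *SdhC*, *UQCR-14* and *COX4*. GGTCACACT, the core of the promoter element Motif 1, lay at 4 (9.76%, against 6.23%), those of *ND-PDSW*, *COX4*, *ATPsynD* and *ATPsynC*. TAATTA, the core that homeodomain proteins bind, lay at 5 summits (12.2%, interval 4.08 to 26.2%), beside 19.8% of all start summits. CAGGTA, the site of the early activator Zelda, lay at 2 (4.88%, against 7.12%), and TATAAA at 14 (34.1%, against 32.5%). Of 2 forms of an element described upstream of respiratory genes in *Drosophila*, TTACATAA lay at 2 summits (4.88%, against 1.88%), those of *ND-MNLL* and *ATPsyngamma*, and TTACGTAA at none (0.34% of all). GCATGC, the core of the NRF-1 site, CCGGAAG, an ETS site, and GAGAGAG lay at none of the 41, which allows a share of up to 8.60%, and at 3.05%, 0.80% and 3.55% of all start summits.

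In promoters TATCGATA was found in 7 of the 39 genes without the suffix that had a start summit, 2 of the 25 that had none and 0 of the 24 L copies, beside 9.37% of all promoters. GGTCACACT was found in 9 of 39, 5 of 25 and 1 of 24, beside 6.05% of all. CAGCTG was found in 12 of 39, 7 of 25 and 2 of 24, beside 17.7% of all. TAATTA was found in 12 of 39, 4 of 25 and 5 of 24, beside 20.5% of all. No match says only that the letters are not in that window.

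**Figure D5:**
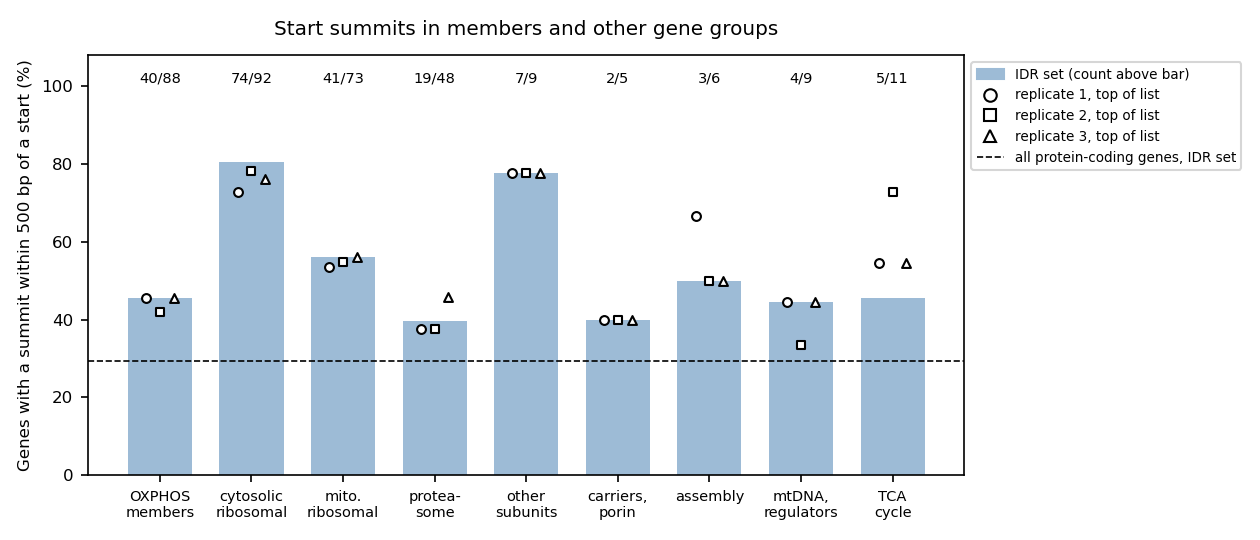
Share of genes (%) with a summit within 500 bp of a start in the 88 oxidative phosphorylation genes (OXPHOS members) and in other gene groups. Bars show the IDR set with counts above them, symbols show the top list of each replicate, and the dashed line is the 29.3% of all protein-coding genes. The bar of the members (45.5%) lies below those of cytosolic (80.4%) and mitochondrial (56.2%) ribosomal protein genes.

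Other genes of the pathway were counted beside these. Of 40 genes in 5 lists, 21 had an IDR start summit. Of 9 genes for subunits with other symbols and for cytochrome c, 7 did. They were *blw*, for the alpha subunit of the ATP synthase (rank 1062), *levy* and *cype*, for subunits of complex IV (2171 and 1982), *RFeSP*, for the Rieske iron-sulfur protein (4341), *ox*, for a subunit of complex III (2073), and the cytochrome c genes *Cyt-c-d* (993) and *Cyt-c-p* (1844). *sun* and *Cyt-c1* had none. Of 6 genes for assembly factors, 3 had one, with *CIA30*, for a complex I assembly factor, at rank 102 (144, 171 and 63 in replicates 1, 2 and 3), *Cox17* at 1785 and *Cox11* at 5487. Of 11 tricarboxylic acid cycle genes 5 had one: *Idh3g* at rank 132 (184, 191 and 94), *Scsalpha1* at 673, *Fum1* at 1149 through the summit it shares with *ND-ASHI*, *mAcon1* at 1827 and *Idh3b* at 3458. Of 5 carrier genes 2 had one, *Mpcp2* (3294) and *porin* (3483). Of 9 genes for mitochondrial DNA factors and nuclear regulators 4 had one, *ERR* (1900), *PolrMT* (5434), *mtTFB2* (6777) and *ewg* (7135), the fly relative of NRF-1. A head-to-head neighbour was present for 10 of the 21 genes, beside 52.0% of all protein-coding genes with a start summit. *CIA30* (with *CG7601*) and *Idh3g* (with *CG4743*) are among these 10. Which start was nearer to the summit was not determined for the other pathway genes.

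Other housekeeping families were taken by symbol for scale. Cytosolic ribosomal protein genes (RpL and RpS) had an IDR start summit at 74 of 92 (80.4%), mitochondrial ribosomal protein genes (mRpL and mRpS) at 41 of 73 (56.2%) and proteasome subunit genes at 19 of 48 (39.6%). Over libraries the shares were 75.7 ± 2.74%, 54.8 ± 1.37% and 40.3 ± 4.81%, against 44.3 ± 1.97% for the 88 oxidative phosphorylation genes (SD, n = 3). The 88 genes lay below both ribosomal families in all 3 libraries, and above the proteasome genes in replicates 1 and 2 only. Without the L copies the share of the 64 genes was 58.9 ± 3.61%. No duplicates were taken out of the other families, so this share is not matched to theirs. These differences between families were not tested.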

How the data were processed

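Chromatin immunoprecipitation with sequencing was done on 3 biological replicates of 1 group, with fragments of 200 to 800 bp per the labels. Peaks were called by the authors on dm6, per library and on the pool of all 3, against control alignments per the deposited notes. Which caller and aligner were used is not given in the sources used here. The deposited lists hold a signal value for each peak, a score whose scale differs between lists, and a −log10 q-value, which the authors left constant in the IDR set. They give no read counts, so the depth is unknown. The rows of the IDR set are the strongest rows of the pooled list, and no row is identical between libraries.

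From these lists, summits were ranked by signal value within each list and set against starts of the Ensembl annotation, release 115, with Python 3.11.15, pandas 2.3.3, NumPy 2.4.6 and SciPy 1.17.1. A start summit lies within 500 bp of any annotated start, and the territory is the gene body with 2 kb on either side. Each library list was shortened to the length of the IDR set (its top list) so that lists have 1 length. Sequences were read from the RefSeq copy of the same genome assembly, after every interval was checked to lie within its arm. The assignment of summits to starts was tested on simulated data. Any member could be named, and those named in full were the 10 strongest, the strongest and weakest of each complex, each L copy with an IDR start summit and each bound member missing from a top list. Genes and lists were chosen with earlier results of these data known. Alternatives were other distances, list lengths, start choices, motif windows, rankings and libraries left out.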

Additional observations from a re-analysis of the deposited data

How the results depend on the processing

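Counts were compared within a factor of 1.5, median ranks within 1 SD over libraries and motif shares within their 95% intervals, which are wide. By these measures 63 of 78 alternative values stayed within range and 15 did not. The stronger 50% of the IDR summits, a shorter list by construction, marked 21 genes at a start, 20 of them without the L suffix, and 29 in the territory. These 21 were 52.5% of the 40 genes with a start summit, and the same list kept 52.5% of all 4089 such genes. Means over libraries were 19.7 starts and 29.3 territories with top lists shortened the same way, and 63.7 starts with all 30000. A pooled list 2 times as long as the IDR set marked 57 genes at a start. L copies with a start summit numbered 0 within 200 bp, 3 within 1000 bp and 2 with the longer pooled list. The gene body alone held a summit in 13 genes.

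Motif shares rest on few summits and changed with the window. Within 50 bp of the summits, the share with TATCGATA was 7.32%, with GGTCACACT 4.88%, with TTACATAA 2.44%, with CAGCTG 17.1%, with TATAAA 22.0% and with CAGGTA 0%. In the promoters of the bound genes it was 22.5% for GGTCACACT, 30.0% for TAATTA, 52.5% for TATAAA and 7.5% for CAGGTA. Over all promoters these shares were 6.05%, 20.5%, 45.9% and 6.25%. A neighbour distance of 200 bp, added after seeing the data, gave 12 bound genes of 17 with a neighbour (70.6%) and 28 of 71 without (39.4%), where 500 bp gave 69.2% and 26.5%. The 50 bp window lies inside the 100 bp window, so by construction a share can only fall or stay. With the 200 bp distance, genes whose neighbour starts farther away but within 500 bp are counted as having none. Why the promoter shares differed was not tested.

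Each library was left out in turn, and summits of the remaining pair within 100 bp of each other were used. These sets are shorter than the IDR set by construction, with 4782, 5107 and 5304 summits without replicates 1, 2 and 3. They marked 30.7%, 37.5% and 35.2% of the 88 genes at a start, beside 21.4%, 22.6% and 21.5% of all protein-coding genes. Start counts ranged from 27 to 33, from 26 to 32 without the suffix and 1 for L copies, and territory counts from 41 to 45. Means over the remaining libraries ranged from 38.5 to 40 for starts and from 51 to 53.5 for territories, and genes marked in every remaining library from 32 to 37. No paired analysis was possible because the study has 1 group. With no read counts, what depth allows is unknown.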
